A study of Mus musculus with 6 samples.

Results

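The MHC class I and immunoproteasome genes described here are 10 genes chosen by symbol, of 36528 gene models counted in the series. They are the light chain gene B2m, the classical heavy chain genes H2-K1 and H2-D1, the transporter genes Tap1 and Tap2, the loading factor Tapbp, the immunoproteasome subunits Psmb8, Psmb9 and Psmb10, and the transactivator Nlrc5. Class I molecules show peptides from inside the cell to CD8+ T cells. The proteasome cuts proteins to peptides, the transporter of Tap1 and Tap2 carries these into the endoplasmic reticulum, tapasin (Tapbp) helps load them onto a heavy chain paired with beta-2-microglobulin, and the loaded complex goes to the cell surface. Interferons are known to raise these genes in most cell types, in part through Irf1 and Nlrc5, and low class I expression is a known way for melanoma to escape T cells.

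The libraries were made from polyadenylated RNA of primary mouse melanocytes, the pigment cells, taken from skin. Of the 6 libraries, 3 carry the genotype label BAP1 KO and 3 the label WT. BAP1 is a nuclear deubiquitinase acting on histones and a tumour suppressor in melanocytic tumours. The labels name no strain, age, allele, Cre driver, treatment or number of animals, and whether the libraries of a label came from separate cultures or animals is not given in the sources used here, so a p-value here covers the spread among these libraries alone, and that spread may be technical. Libraries held 33987690 to 43773769 uniquely aligned reads, so that 1 CPM, the unit of counts scaled to library size, stood for 33.99 to 43.8 reads.

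Bap1 itself, a deubiquitinase gene (chromosome 14, 31251352 to 31259930 on GRCm38), had 73.6, 77.3 and 72.5 CPM with the BAP1 KO label, against 55.7, 55.6 and 55.8 CPM with the WT label. The count of the targeted gene thus did not fall with the BAP1 KO label, where its log2 fold change was 0.42 (SE 0.042, adjusted p = 3.89e-06 by edgeR). A count over the whole gene model cannot show whether some exons are missing, and no counts per exon were available. Every direction below rests on the labels, and "higher" and "lower" describe the libraries labelled BAP1 KO against those labelled WT. Fold changes are log2 values of edgeR's quasi-likelihood fit, and adjusted p-values are Benjamini-Hochberg values over all 17121 genes tested. Cell type markers also moved with the label. All 12 melanocyte markers were higher, with a summed level of 64454 to 65282 CPM with the BAP1 KO label, against 6756 to 6827 CPM with the WT label. All 18 keratinocyte markers tested, of 19 listed, were lower, at 760 to 810 CPM summed with the BAP1 KO label, against 13760 to 13987 CPM with the WT label. Of 12 fibroblast markers 11 were lower and Pdgfrb, named after its values were seen, was higher, at 104 to 111 CPM summed with the BAP1 KO label, against 1386 to 1441 CPM with the WT label. In bulk RNA, fewer cells of a type and less RNA per cell cannot be told apart, and the part of these marker differences in the class I results was not tested.

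Promoters were searched for fixed letter patterns of known control elements of class I genes. Forms of an element that depart from these letters are not marked. RefSeq windows of GRCm38.p6, from 250 bases before to 50 bases after the start site, were found for 8 of the 10 members; Tap2 and Nlrc5 had none. The windows of B2m, H2-K1 and H2-D1 are shown because these 3 genes form the surface complex, and that of Tap1 because Psmb9 starts in it. Capitals mark matches on either strand to an interferon-stimulated response element (GAAA, any 2 bases, GAAA), a gamma-activated site (TTCNNNGAA), an NF-kappaB site (GGGA, any base, T, any 2 bases, CC), the X2 box core (TGACG) and the Y box (CCAAT). The X2 and Y boxes are bound by the complex through which NLRC5 acts.
B2m, chr2:122147437-122147736, plus strand: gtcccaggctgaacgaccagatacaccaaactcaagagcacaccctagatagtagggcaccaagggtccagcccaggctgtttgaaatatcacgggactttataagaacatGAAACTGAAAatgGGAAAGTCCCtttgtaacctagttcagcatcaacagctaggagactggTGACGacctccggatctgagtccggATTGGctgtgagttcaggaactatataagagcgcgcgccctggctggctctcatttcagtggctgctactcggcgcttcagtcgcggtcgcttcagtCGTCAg
H2-K1, chr17:34000298-34000597, minus strand: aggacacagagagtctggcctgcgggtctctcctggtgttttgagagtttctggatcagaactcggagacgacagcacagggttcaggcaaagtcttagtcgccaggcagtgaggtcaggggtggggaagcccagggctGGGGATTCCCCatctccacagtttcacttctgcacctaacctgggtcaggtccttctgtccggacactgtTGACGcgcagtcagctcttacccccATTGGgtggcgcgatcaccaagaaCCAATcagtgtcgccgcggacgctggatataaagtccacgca
H2-D1, chr17:35262844-35263143, plus strand: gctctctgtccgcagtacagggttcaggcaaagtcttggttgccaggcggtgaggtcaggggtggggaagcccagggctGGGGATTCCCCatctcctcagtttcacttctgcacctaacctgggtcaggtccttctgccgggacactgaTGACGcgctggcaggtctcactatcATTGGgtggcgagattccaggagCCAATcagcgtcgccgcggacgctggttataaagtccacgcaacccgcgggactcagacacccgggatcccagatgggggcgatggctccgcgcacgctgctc
Tap1, chr17:34187306-34187605, plus strand: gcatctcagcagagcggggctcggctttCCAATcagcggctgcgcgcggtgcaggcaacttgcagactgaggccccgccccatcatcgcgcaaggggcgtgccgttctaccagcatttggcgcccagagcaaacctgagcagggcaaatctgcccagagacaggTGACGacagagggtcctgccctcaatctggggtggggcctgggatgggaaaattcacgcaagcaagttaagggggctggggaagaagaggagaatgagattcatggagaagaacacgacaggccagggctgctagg

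In the B2m window the interferon-stimulated response element begins at base -139 from the start site, the NF-kappaB site at -126, X2 cores at -78 and 45 and a Y box at -53. H2-K1 has an NF-kappaB site at -111, which matches on both strands 1 base apart, an X2 core at -41 and Y boxes at -16 and 9; another RefSeq start site of H2-K1 lies within the same stretch. H2-D1 has the same elements in the same order at -171, -101, -76 and -53. Aligned without gaps at the NF-kappaB site, the H2-K1 and H2-D1 windows were identical at 73.3% of 240 bases. The start sites of Psmb9, read on the minus strand, and Tap1, read on the plus strand, lie 226 bases apart, so that their windows share 275 bases, with 1 X2 core and 1 Y box. Psmb8 had a match to the gamma-activated site at -97, Tapbp had Y boxes only, and Psmb10 had no match to these letters in its window. Among all 32851 windows of that table, 3.44% held the interferon-stimulated response element, 8.30% the gamma-activated site, 4.16% the NF-kappaB site, 20.8% the X2 core and 37.4% the Y box, so that matches to the shorter motifs are frequent. Of the 8 members with a window, 1 held the first, 1 the second, 3 the third, 5 the X2 core and 6 the Y box. A match is a stretch of letters and does not show binding. Lack of a match does not show that an element is absent, since variant forms were not searched.

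All 10 members passed the filter on low counts. In the libraries labelled BAP1 KO, 5 were higher (B2m, H2-D1, Tap2, Psmb9 and Psmb10), 4 were lower (H2-K1, Tap1, Tapbp and Psmb8), and Nlrc5 did not pass the threshold. Among all genes tested, 81.5% were called, 39.4% as higher and 42.1% as lower, so the 9 members called are close to the share of all genes and say nothing particular about the set. The members' median log2 fold change was 0.34, and that of all genes was -0.03. Values of the 2 labels did not overlap for 9 members, against 82.7% of all genes. A log2 difference beyond 1, tested with edgeR's glmTreat, was called for 2 members, B2m (adjusted p = 0.000953) and Psmb9 (adjusted p = 1.18e-06), and for 30.6% of all genes. Summed over the 10 genes, the level was 1795 to 1849 CPM with the BAP1 KO label, against 1240 to 1316 CPM with the WT label, and most of the sum was B2m and the heavy chains.

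**Figure D1:**
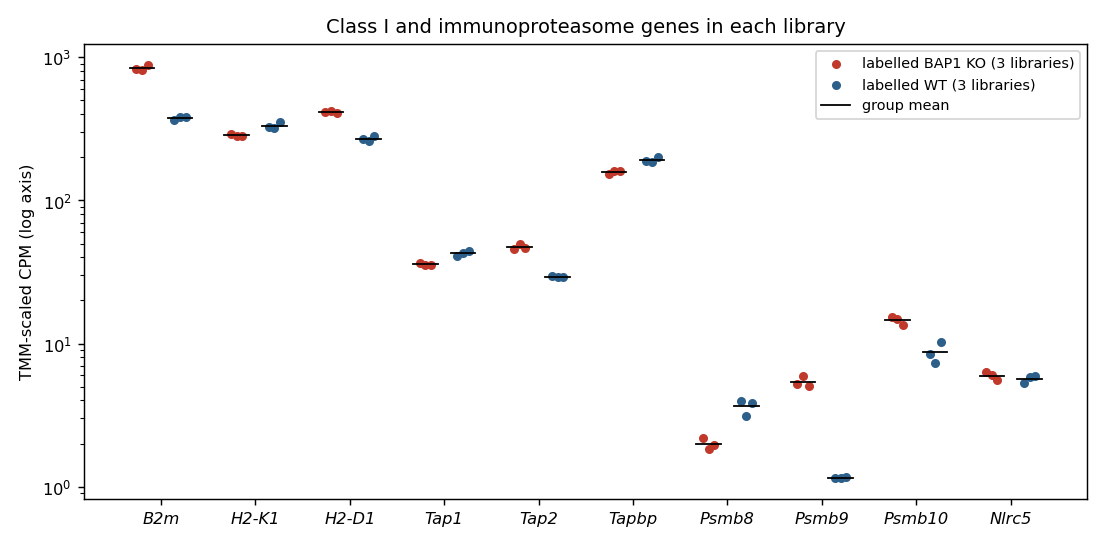
Level of each of the 10 genes in every library, in CPM scaled by TMM factors on a log axis; points are the 3 libraries of each label, BAP1 KO left of WT, and lines are the group means. The labels are apart in 9 genes, with the widest relative gap in Psmb9 (means of 5.39 CPM with the BAP1 KO label and 1.15 CPM with the WT label), and overlap in Nlrc5.

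The 3 chains of the surface complex moved unequally. B2m (gene ID 12010, chromosome 2, 122147687 to 122153082), the light chain shared by all class I molecules, had 832, 817 and 890 CPM with the BAP1 KO label, against 368, 382 and 384 CPM with the WT label. Its mean was 846 ± 38.3 CPM with the BAP1 KO label, against 378 ± 8.96 CPM with the WT label (SD, n = 3 each), a 2.24-fold difference. Every library labelled BAP1 KO stood far above every one labelled WT, and the log2 fold change was 1.16 (SE 0.041, edgeR adjusted p = 5.3e-10).

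H2-D1 (gene ID 14964, chromosome 17, 35263094 to 35267497), a classical heavy chain, had 415, 421 and 409 CPM with the BAP1 KO label, against 268, 261 and 281 CPM with the WT label. It was 1.54-fold higher, with a log2 fold change of 0.62 (SE 0.038, edgeR adjusted p = 6.65e-08). H2-K1 (gene ID 14972, chromosome 17, 33996012 to 34000619), the other classical heavy chain, went the other way. It had 291, 282.5 and 281 CPM with the BAP1 KO label, against 326, 321 and 354 CPM with the WT label, with a log2 fold change of -0.23 (SE 0.044, edgeR adjusted p = 0.000572). The groups did not overlap, but the gap was small: the highest library with the BAP1 KO label had 291 CPM and the lowest with the WT label 321 CPM. Class I heavy chains are alike in sequence, and of the 50-base sequences of the annotated exons 12.8% of H2-D1 (H2-Q1 most of all) and 9.63% of H2-K1 (H2-Q10 most of all) also occur in other genes; reads from those stretches cannot be aligned uniquely. The heavy chain alleles of the mice are not named in the labels.

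Peptide transport and loading also split. Tap1 and Tap2 encode the paired chains of the peptide transporter. Tap2 (gene ID 21355, chromosome 17, 34204479 to 34216321) had 46.1, 50.0 and 46.7 CPM with the BAP1 KO label, against 29.8, 29.0 and 29.4 CPM with the WT label, a log2 fold change of 0.70 (SE 0.049, edgeR adjusted p = 1.95e-07). Tap1 (gene ID 21354, chromosome 17, 34187556 to 34197225) had 36.8, 35.4 and 35.2 CPM with the BAP1 KO label, against 40.7, 42.9 and 44.6 CPM with the WT label, a log2 fold change of -0.26 (SE 0.050, edgeR adjusted p = 0.000685). Thus Tap2 was 1.62-fold higher while Tap1 was slightly lower, without overlap between labels in either gene. Tapbp (gene ID 21356, chromosome 17, 33919478 to 33929290), which encodes tapasin, the bridge between transporter and heavy chain, had 154, 160.1 and 162 CPM with the BAP1 KO label, against 189, 187 and 201 CPM with the WT label. It was lower by a log2 fold change of -0.28 (SE 0.042, edgeR adjusted p = 0.000104). The library preparation does not mark strand, so reads of overlapping genes cannot be told apart: 18.5% of the Tap2 exon bases overlap Gm15821, and 29.0% of those of Tapbp overlap Gm19412. Of their 50-base sequences, 11.6% of Tap2 and 23.2% of Tapbp also occur in other genes, most of all in these same overlapping genes. That share thus includes the overlap and is not a separate limit.

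The immunoproteasome subunits replace the catalytic subunits of the standard proteasome and change which peptides are cut. Psmb9 (gene ID 16912, chromosome 17, 34182030 to 34187330), also known as LMP2, had 5.20, 5.96 and 5.02 CPM with the BAP1 KO label, against 1.15, 1.14 and 1.16 CPM with the WT label. These levels rest on 193, 254 and 180 reads with the BAP1 KO label, against 40, 43 and 48 reads with the WT label. It was 4.68-fold higher, the greatest difference among the members, with a log2 fold change of 2.23 (SE 0.12, edgeR adjusted p = 2.47e-08). Of the Psmb9 exon bases, 5.79% overlap Tap1, which averaged 35.8 CPM with the BAP1 KO label, against 42.7 CPM with the WT label. Strand is not marked, and the part of Tap1 reads in the low Psmb9 counts was not tested. Psmb10 (gene ID 19171, chromosome 8, 105935728 to 105938392), also known as MECL-1, had 15.2, 14.8 and 13.5 CPM with the BAP1 KO label, against 8.49, 7.29 and 10.3 CPM with the WT label. It was 1.67-fold higher (log2 fold change 0.74, SE 0.11, edgeR adjusted p = 9.88e-05), with the widest spread relative to its mean among the members within the WT label.

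Psmb8 (gene ID 16913, chromosome 17, 34198195 to 34201454), also known as LMP7, was lower. It had 2.18, 1.83 and 1.95 CPM with the BAP1 KO label, against 3.97, 3.14 and 3.83 CPM with the WT label, which were 81, 78 and 70 reads with the BAP1 KO label, against 138, 118 and 158 reads with the WT label. The log2 fold change was -0.88 (SE 0.13, edgeR adjusted p = 0.000103), and 14.7% of its exon bases overlap Gm20496, with 11.9% of its 50-base sequences shared with other genes. Psmb8 and Psmb9 lie on either side of Tap1, so of these 3 neighbours the outer pair differed in opposite directions.

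Nlrc5 (gene ID 434341, chromosome 8, 94434335 to 94527272), a transactivator of class I genes that interferon-gamma induces, had 6.36, 5.98 and 5.55 CPM with the BAP1 KO label, against 5.29, 5.88 and 5.89 CPM with the WT label. The values of the labels overlapped. The log2 fold change was 0.07 (edgeR adjusted p = 0.502), with a 95% interval from -0.13 to 0.27.

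**Figure D2:**
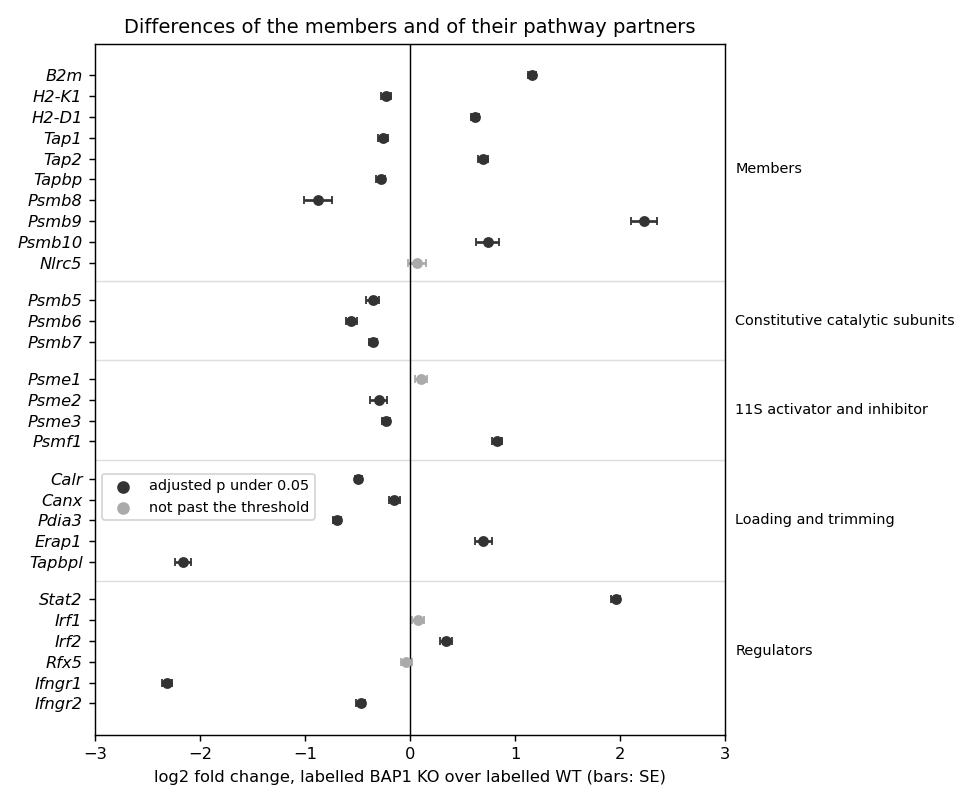
Log2 fold change of the 10 members and of pathway partners described further on, libraries labelled BAP1 KO over those labelled WT; bars are the SE, and grey points did not pass the threshold. Among the members, Psmb9 (2.23) and B2m (1.16) lie furthest to the right, Psmb8 (-0.88) lies furthest to the left, and the SE bar of Nlrc5 covers 0.

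Levels can be compared between genes only per length, on the deposited RPKM scale. B2m led in both labels, at 929.7 ± 40.9 RPKM with the BAP1 KO label, against 407 ± 10.8 RPKM with the WT label (SD, n = 3 each). In the libraries labelled BAP1 KO, H2-D1 (225 ± 3.48 RPKM) came next, then H2-K1 (123 ± 2.86 RPKM), Tapbp (54.3 ± 1.28 RPKM), Tap2 (17.02 ± 0.722 RPKM) and Tap1 (11.4 ± 0.318 RPKM). Psmb10 (8.80 ± 0.573 RPKM), Psmb9 (3.053 ± 0.278 RPKM), Psmb8 (1.41 ± 0.132 RPKM) and Nlrc5 (0.719 ± 0.051 RPKM) closed that order, in which the replicate values of neighbouring genes did not overlap. In the libraries labelled WT, H2-D1 (144 ± 7.62 RPKM) and H2-K1 (142 ± 9.41 RPKM) did not differ beyond their spread. They were followed by Tapbp (64.6 ± 3.42 RPKM), Tap1 (13.4 ± 0.688 RPKM), Tap2 (10.3 ± 0.276 RPKM), Psmb10 (5.16 ± 0.961 RPKM) and Psmb8 (2.53 ± 0.342 RPKM). Nlrc5 (0.671 ± 0.040 RPKM) and Psmb9 (0.639 ± 0.015 RPKM) were lowest there and did not differ beyond their spread. The order of Tap1 and Tap2 and of Psmb8 and Psmb9 thus differed between the labels.

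Ratios of RPKM values within a library do not depend on library scaling. Psmb9 over Psmb6, the immunoproteasome subunit over the standard subunit it replaces, was 0.0570, 0.0642 and 0.0590 with the BAP1 KO label, against 0.00895, 0.00889 and 0.00837 with the WT label. Psmb10 over Psmb7 was 0.158, 0.152 and 0.136 with the BAP1 KO label, against 0.0690, 0.0571 and 0.0824 with the WT label. Psmb8 over Psmb5 was 0.104, 0.0849 and 0.0922 with the BAP1 KO label, against 0.147, 0.122 and 0.133 with the WT label. The Psmb9 ratio was thus 6.87-fold and the Psmb10 ratio 2.16-fold higher, the Psmb8 ratio was lower, and in every library each immunoproteasome subunit stood well below the subunit it replaces. Psmb5 is uncertain, since 54.1% of its 50-base sequences occur in other genes, Gm3375 most of all.

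B2m over the sum of H2-K1 and H2-D1 was 2.60, 2.56 and 2.85 with the BAP1 KO label, against 1.41, 1.498 and 1.38 with the WT label, a 1.87-fold difference. Tap1 over Tap2 was 0.714, 0.633 and 0.674 with the BAP1 KO label, against 1.22, 1.32 and 1.36 with the WT label, so that per length Tap2 stood above Tap1 in all 3 libraries with the BAP1 KO label and below it in all 3 with the WT label. H2-K1 over H2-D1 was 0.560, 0.535 and 0.547 with the BAP1 KO label, against 0.970, 0.983 and 1.004 with the WT label. Psmb9 over Tap1, the pair with adjacent start sites, was 0.250, 0.298 and 0.253 with the BAP1 KO label, against 0.0501, 0.0473 and 0.0462 with the WT label; this ratio and the one before it were chosen after the values were seen. Differences of the mean log2 ratio were 2.78 (SE 0.059) for Psmb9 over Psmb6, 1.11 (SE 0.17) for Psmb10 over Psmb7, -0.52 (SE 0.11) for Psmb8 over Psmb5 and 0.90 (SE 0.059) for B2m over the heavy chains. They were -0.95 (SE 0.068) for Tap1 over Tap2, -0.85 (SE 0.024) for H2-K1 over H2-D1 and 2.48 (SE 0.089) for Psmb9 over Tap1. The labels did not overlap in any of the 7 ratios. The exact two-sided permutation p was 0.1 for each, the smallest that 3 against 3 libraries allow, and 0.1 after adjustment over 7 ratios. Adding 1 to each RPKM value moved the difference to 1.82 for Psmb9 over Psmb6, 1.51 for Psmb9 over Tap1 and -0.24 for Psmb8 over Psmb5, all at low levels, with the direction kept.

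**Figure D3:**
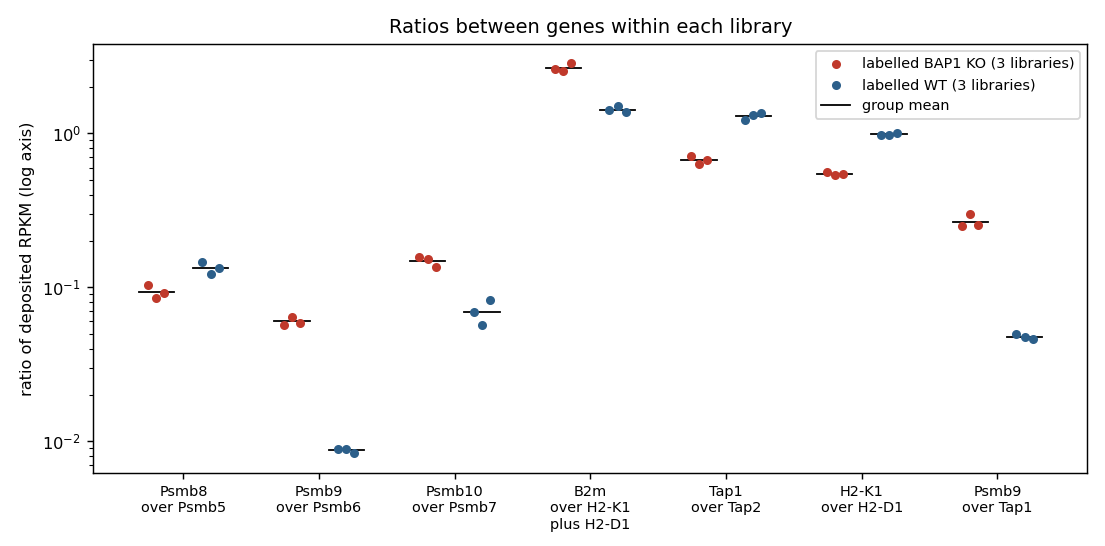
Ratio of deposited RPKM values within each library on a log axis, for the 7 gene pairs compared; points are the 3 libraries of each label, BAP1 KO left of WT, and lines are the group means. The labels are apart in all 7 pairs, most of all for Psmb9 over Psmb6, and Tap1 over Tap2 lies on different sides of 1.

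The standard proteasome was mostly lower. Its 3 catalytic subunits were all lower: Psmb6 had 58.7 ± 2.70 CPM with the BAP1 KO label, against 86.4 ± 3.98 CPM with the WT label (SD, n = 3 each, log2 fold change -0.56, SE 0.051, edgeR adjusted p = 1.71e-06), and Psmb7 (-0.35) and Psmb5 (-0.36) differed less. Of 12 other subunits of the 20S core tested, 10 were lower, led by Psmb3 (-0.79), Psma5 (-0.48) and Psma1 (-0.47). Psma5 is uncertain, since 50.0% of its 50-base sequences occur in other genes, Gm8394 most of all, and for Psmb3 that share is 17.8%. Psmb11, the catalytic subunit known from the thymus, was called higher but lay under 1 CPM in each label (0.469 CPM under BAP1 KO, 0.0627 CPM under WT), and is named after its values were seen. Of 18 subunits of the 19S cap, which unfolds substrates, 16 were lower and 0 higher, led by Psmd14 (-0.69), Psmd3 (-0.64), Psmd12 (-0.50) and Psmd4 (-0.47), with 1 higher when WT replicate 3 is left out. Over the 20S and 19S subunits together, 29 of 33 tested were lower with a median log2 fold change of -0.30, where 42.1% of all genes were lower. The keratinocyte and fibroblast markers moved the same way, and their part was not tested.

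Activators and assembly factors went both ways, with 4 of 10 higher and 4 lower. Psme1 and Psme2 encode the interferon-inducible activator PA28. Psme1 had 38.1, 38.7 and 39.3 CPM with the BAP1 KO label, against 36.9, 33.0 and 38.0 CPM with the WT label, and did not pass (log2 fold change 0.11, edgeR adjusted p = 0.111, 95% interval -0.02 to 0.24); without WT replicate 3 it passes as higher (edgeR adjusted p = 0.00346). Psme3, a related activator, was lower (-0.23). Psme2 was also lower (-0.30), but 28.3% of its 50-base sequences occur in other genes, Psme2b most of all, and it does not pass without WT replicate 1 (edgeR adjusted p = 0.0613). Pomp, the assembly chaperone of new proteasomes, was lower (-0.42), as was Psmg3 (-0.31). Psmf1, a proteasome inhibitor, was higher (0.83), as was Psme4 (0.44), the activator PA200.

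Of 17 other peptide trimming and loading factors tested, 12 were lower, 4 higher and 1 not past the threshold, at a median log2 fold change of -0.47. Tapbpl, the tapasin relative TAPBPR that edits peptides, showed the greatest difference among them, at 5.19 ± 0.509 CPM with the BAP1 KO label, against 23.3 ± 0.595 CPM with the WT label (SD, n = 3 each, log2 fold change -2.17, SE 0.077, edgeR adjusted p = 5.97e-10). H13, a signal peptide peptidase, was lower (-1.47), as were the aminopeptidases Lap3 (-1.08) and Npepps (-0.88). The chaperones of the loading complex were lower too, Pdia3 (ERp57) by a log2 fold change of -0.70 and Calr by -0.49. Canx, the chaperone of free heavy chains, was lower by -0.15 (edgeR adjusted p = 0.0223), and the call is lost when any single library other than WT replicate 3 is left out (edgeR adjusted p = 0.0584 to 0.0941).

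Erap1, which trims peptides in the endoplasmic reticulum, was higher, at 52.6, 53.1 and 53.1 CPM with the BAP1 KO label, against 33.97, 36.1 and 28.0 CPM with the WT label (log2 fold change 0.70, SE 0.079, edgeR adjusted p = 1.11e-05), though 11.5% of its exon bases overlap Cast and 10.7% of its 50-base sequences are shared. The other 3 higher genes of this list, named after their values were seen, were the aminopeptidase Lnpep (0.58), Nrd1 (0.40) and Blmh (0.11).

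Other genes of the class I heavy chain family also split. Of 32 other class I and class I-like genes listed, 19 were tested, with 10 higher, 8 lower and 1 not past the threshold, and the median log2 fold change was 0.53. RefSeq marks H2-K2 and H2-T10, both among the 10 higher, as transcribed pseudogenes. H2-K2 was higher, at 19.7, 19.9 and 21.6 CPM with the BAP1 KO label, against 3.37, 2.87 and 3.57 CPM with the WT label (log2 fold change 2.64, SE 0.088, edgeR adjusted p = 3.57e-10). H2-T23, which encodes the Qa-1 ligand of NKG2A, was lower, at 13.1, 12.9 and 12.2 CPM with the BAP1 KO label, against 31.2, 30.5 and 31.5 CPM with the WT label (log2 fold change -1.28, SE 0.054, edgeR adjusted p = 2.61e-09), and 14.5% of its 50-base sequences occur in other genes. Azgp1, a secreted relative of class I, was higher (5.13), while Procr, the protein C receptor, was lower (-3.64) and Cd1d1, which shows lipids to NKT cells, was lower (-2.25). H2-Q7 and H2-Q9, both among the 10, had identical counts in every library, so they cannot be told apart. Among the 10 higher, other genes share 53.5% of the 50-base sequences of H2-T22 and 50.4% of H2-T10, each most of all with the other. That share was 36.4% for H2-Q4, 35.0% for H2-Q6 and 26.5% for H2-Q7. Of the lower genes, Cd1d1 had 19.1% and H2-Q2 16.1% shared. The counts of genes and the median thus do not rest on separately measured genes alone. The sum of these genes was 192 to 194 CPM with the BAP1 KO label, against 257 to 276 CPM with the WT label, of which Procr was 129 CPM on average with the WT label.

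**Figure D4:**
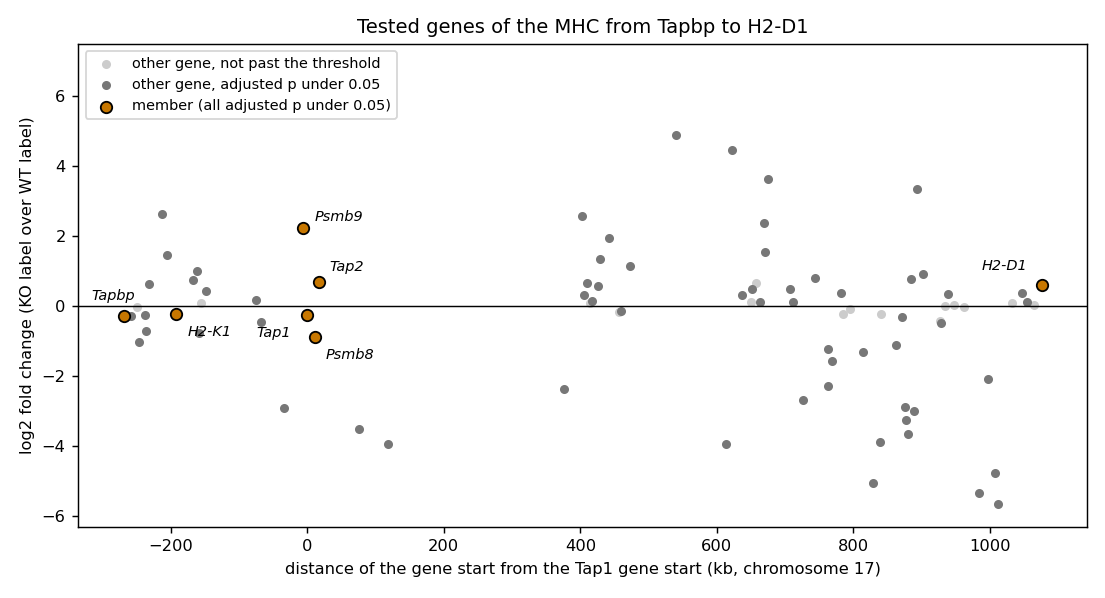
Log2 fold change of each tested gene of the MHC between Tapbp and H2-D1, libraries labelled BAP1 KO over those labelled WT, against the distance of its lower coordinate from that of Tap1 in kilobases; orange points are the 7 members there. Members and neighbours lie on both sides of 0, and Psmb9, Tap1, Psmb8 and Tap2, next to each other, differ in direction.

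Of the members, 7 lie in the MHC on chromosome 17, and their neighbours showed no common direction. Between 33919478, where Tapbp begins, and 35267497, where H2-D1 ends, 102 other gene models were listed and 78 tested. Of these 33 rose, 30 fell and 15 did not pass, with a median log2 fold change of 0.04 and a range from -5.64 to 4.89. These counts are close to the shares of all genes tested, 39.4% higher and 42.1% lower. They say nothing particular about the region. Along the chromosome Psmb9 (2.23), Tap1 (-0.26), Psmb8 (-0.88) and Tap2 (0.70) follow each other.

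The regulators upstream of the class I genes differed in part. Stat2, which carries type I interferon signals to DNA, had 131, 129.9 and 130.2 CPM with the BAP1 KO label, against 33.9, 31.9 and 34.8 CPM with the WT label (log2 fold change 1.96, SE 0.045, edgeR adjusted p = 1.65e-11). The labels did not overlap. The receptor chains of interferon-gamma were lower: Ifngr1 had 16.6, 17.9 and 17.7 CPM with the BAP1 KO label, against 89.3, 87.1 and 84.1 CPM with the WT label (log2 fold change -2.32, SE 0.050, edgeR adjusted p = 1.01e-11), and Ifngr2 was lower by a log2 fold change of -0.47. Ifnlr1, the receptor chain of interferon lambda, was lower (-2.76), and Il10rb, its partner and that of the interleukin 10 receptor, was higher (1.53). Of 15 such receptor, JAK, STAT and SOCS genes tested, 8 were higher and 6 lower.

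Irf1, the interferon regulatory factor that acts on class I and on the start region shared by Psmb9 and Tap1, did not pass. It had 25.6, 25.0 and 24.9 CPM with the BAP1 KO label, against 24.3, 22.3 and 25.0 CPM with the WT label (log2 fold change 0.07, edgeR adjusted p = 0.243, 95% interval -0.05 to 0.20), but passes as higher without WT replicate 3 (edgeR adjusted p = 0.0312). Irf2 was higher (0.34), as were Irf7 (1.36), Irf2bpl (1.07) and Irf4 (0.89). Of the 11 genes of that list, 5 were higher and 3 lower. Of 12 genes of the MHC enhanceosome and of the Polycomb complex that is known to repress class I genes, 7 were higher, 0 lower and 5 did not pass. Suz12 (0.89), Creb1 (0.76), Nfyc (0.75) and Ezh2 (0.74) led the list. For Nfyc, 22.2% of the 50-base sequences occur in other genes, Gm9144 most of all. Eed, the Polycomb gene listed with Suz12 and Ezh2 and named after its values were seen, did not pass (-0.03, edgeR adjusted p = 0.669). Rfx5, a subunit of the X-box complex, had 34.7, 31.9 and 34.4 CPM with the BAP1 KO label, against 34.1, 34.9 and 34.5 CPM with the WT label (log2 fold change -0.04, edgeR adjusted p = 0.523). Of its exon bases 26.8% overlap B230398E01Rik, and 22.3% of its 50-base sequences are shared. Rfxap (0.50) and Rfxank (0.24), the other RFX genes of that list and named after their values were seen, were higher. Of the Rfxank exon bases 33.8% overlap Nr2c2ap, and 31.0% of its 50-base sequences are shared. Ciita, the class II counterpart of Nlrc5, was at 0.403 CPM with the BAP1 KO label, against 0.345 CPM with the WT label and did not pass (edgeR adjusted p = 0.528). Of 5 NF-kappaB subunits, Rel (0.47), Relb (0.42), Nfkb1 (0.22) and Nfkb2 (0.21) were higher.

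Interferon-stimulated genes outside antigen presentation had no common direction either. Of the 36 genes that could be tested 18 rose and 12 fell, and their median log2 fold change was 0.09. Over all genes tested, the shares were 39.4% higher and 42.1% lower. Ifit3b (2.91) and Ifit3 (2.71) were higher, but 45.0% and 51.2% of their 50-base sequences occur in other genes, each most of all in the other. Ifit2 (2.03), Irgm2 (1.73), Ifit1 (1.72) and Xaf1 (1.61), named after their values were seen, were also higher. Each of them has less than 10% of its 50-base sequences in other genes. Ifi44 was lower (-6.45), at 0.0957 CPM with the BAP1 KO label, against 8.61 CPM with the WT label, and Isg20 was lower (-2.23). No library had a read of Ifnb1 or Ifnk.

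**Figure D5:**
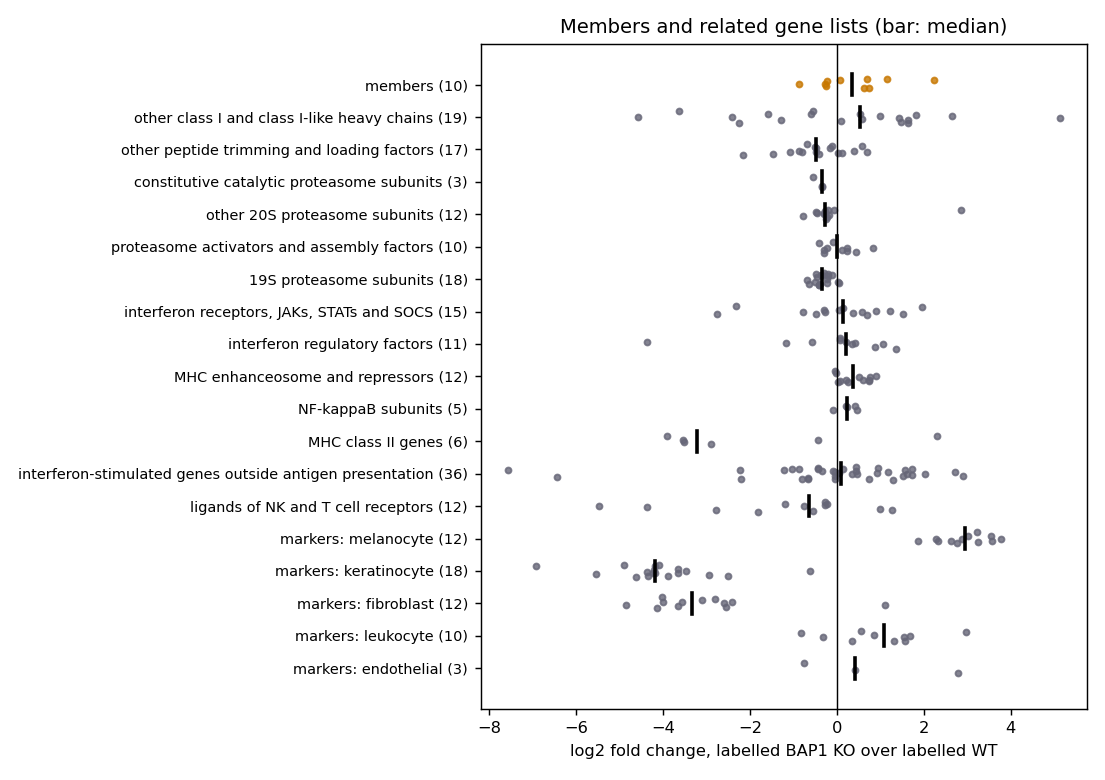
Log2 fold changes of the tested genes of each list, libraries labelled BAP1 KO over those labelled WT; orange points are the members, grey points are other genes, the bar is the list's median, and the number tested stands in brackets. The standard proteasome lists sit just below 0, and the class I and interferon lists spread on both sides. The MHC enhanceosome list (-0.04 to 0.89) and the NF-kappaB list (-0.09 to 0.47) lie mostly above 0. The medians of the keratinocyte (-4.18), fibroblast (-3.34), class II (-3.21) and melanocyte (2.95) lists lie furthest from 0.

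Class II genes and ligands of lymphocyte receptors were mostly lower. Of 6 class II pathway genes tested, 5 were lower, among them H2-Eb1 (-3.92), H2-Ab1 (-3.52) and H2-DMb1 (-2.91). The share of all genes tested that were lower was 42.1%. These 5 genes averaged at most 3.81 CPM in either label, and 0 class II genes were called lower under a filter of 5 CPM in 3 libraries. For H2-DMb1, 22.7% of the 50-base sequences occur in other genes, H2-DMb2 most of all. H2-Ab1, a class II beta chain, averaged 0.330 CPM with the BAP1 KO label, against 3.81 CPM with the WT label. Ctss, a protease that cuts the invariant chain, was higher (2.30). Of 12 ligands of NK and T cell receptors tested, 9 were lower and 2 higher, where 42.1% of all genes were lower. H60c, a ligand of NKG2D, was lower (-5.48), as were the adhesion molecule Icam1 (-4.38), Nectin2 (-2.79) and the costimulator Cd80 (-1.82). Cd274, which encodes PD-L1, was higher, at 22.7, 20.8 and 21.9 CPM with the BAP1 KO label, against 11.4, 11.4 and 10.14 CPM with the WT label (log2 fold change 0.99, SE 0.068, edgeR adjusted p = 1.59e-07), with 14.1% of its exon bases overlapping another gene model and 12.4% of its 50-base sequences shared. H60b (1.27), named after its values were seen, was the other higher one.

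Leukocytes and endothelial cells carry high levels of class I and immunoproteasome genes, so their markers are given beside these results. Of 18 leukocyte markers 10 were tested, with 8 higher and 2 lower (Itgam and Adgre1, named after their values were seen). Itgam is uncertain, since 68.7% of its exon bases overlap Gm49368 and 66.3% of its 50-base sequences are shared. The summed level of all 18 was 250.6 to 258 CPM with the BAP1 KO label, against 62.6 to 69.2 CPM with the WT label, of which the lysozyme gene Lyz2 made up 177 CPM on average with the BAP1 KO label, against 22.6 CPM with the WT label. For Lyz2, 15.4% of the 50-base sequences occur in other genes, Lyz1 most of all. Cd68 (1.54), Mpeg1 (1.56) and Tyrobp (1.69) were higher. The pan-leukocyte gene Ptprc was at 0.859 CPM with the BAP1 KO label, against 0.480 CPM with the WT label, and Cd3d and Cd207, which mark T cells and Langerhans cells, had 0 reads in every library. Of 8 endothelial markers 3 were tested, with Vwf (2.78) and Kdr (0.41) higher and Pecam1, the pan-endothelial gene, lower. Pecam1, named after its values were seen, was at 0.265 CPM with the BAP1 KO label, against 0.439 CPM with the WT label (log2 fold change -0.75, edgeR adjusted p = 0.0414), a call lost when any single library other than BAP1 KO replicate 3 is left out. Cldn5 had 0 reads with the BAP1 KO label, against 4 reads with the WT label. The summed level of all 8 was 48.8 to 53.9 CPM with the BAP1 KO label, against 14.7 to 15.7 CPM with the WT label, nearly all of it Vwf and Kdr. The part of these cells in the class I results was not tested.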

How the data were processed

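PolyA RNA of 6 libraries, 3 labelled BAP1 KO and 3 labelled WT, was prepared with TruSeq RNA v2, which does not mark strand, and read as single-end reads of 50 bases, per the labels' protocols. GSNAP and GRCm38 were used, per the submitters' processing notes, and which tool counted reads on which annotation is not given in those notes. The authors deposited, per the file headers, for each gene model a count of uniquely aligned reads and an RPKM adjusted by a size factor. Of 36528 gene IDs, 31049 (85.0%) matched the RefSeq table of GRCm38.p6, 77 took a symbol from GENCODE M21, and 5402, with 1.05% of the reads, had none; coordinates are RefSeq's.

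Counts passing edgeR's filterByExpr (minimum count 10, minimum total 15) were normalized by TMM (factors 0.975 to 1.03). The test was edgeR 4.0.16 (glmQLFit, glmQLFTest) in R 4.3.3 with no covariate. Genes were called at an adjusted p under 0.05. SE is |log2 fold change| divided by the root of F, and levels are TMM-scaled CPM. Ratios use the deposited RPKM values, with exact permutation tests over libraries. No library repeats another of its label: chi-square over its degrees of freedom was 2.01 to 17.4 between them, above sampling noise. Replicates were numbered in accession order and are not paired.

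The members, the gene lists and the naming rule were chosen with earlier results of these data known. The rule names Bap1, the members, 20 pathway genes, and up to 4 called genes per list by absolute log2 fold change, with no overlap between labels and at least 2 CPM in the higher one. Some genes the rule names are not reported here. Shared 50-base sequences and exon overlap come from GENCODE M21, and a share above 10% is given for genes described in full. The shared sequences include those of genes that overlap at the same place. Alternatives were other scalings, filters and tools (DESeq2 1.42.0, limma 3.58.1 voom, edgeR's robust option and glmTreat), an adjusted p under 0.01, a pseudocount of 1 for ratios, and leaving out each library. Scaling by the library factors of the RPKM values and the ratios H2-K1 over H2-D1 and Psmb9 over Tap1 were added after the data were seen. The test was checked on simulated counts.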

Additional observations from a re-analysis of the deposited data

How the results depend on the processing

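Each of the 9 called members kept its direction and stayed called in every setting other than glmTreat in which it was tested. Nlrc5 passed in none of them, and its fold change lay just below 0 under a filter of 5 CPM in 3 libraries. Log2 fold changes ran from 1.08 to 1.21 for B2m, 0.54 to 0.68 for H2-D1, -0.31 to -0.15 for H2-K1, -0.33 to -0.19 for Tap1, 0.62 to 0.73 for Tap2, -0.36 to -0.21 for Tapbp, -0.96 to -0.79 for Psmb8, 2.16 to 2.29 for Psmb9, 0.64 to 0.92 for Psmb10 and -0.01 to 0.13 for Nlrc5. Psmb8 and Psmb9, at the lowest read counts, were not tested under that filter. Against a log2 difference of 1, glmTreat called 2 members higher and 0 lower. In the MHC between Tapbp and H2-D1, 18 neighbours were lower under the 5 CPM filter, which tests fewer genes. Without 1 library, 29 to 39 of these neighbours were higher. Over the settings other than glmTreat, which called 5235 genes in both directions together, 4896 to 7312 genes were called higher and 5248 to 8157 lower. Other scalings moved the median of all genes by at most 0.06. Leaving out WT replicate 3 made Psme1 (adjusted p = 0.00346) and Irf1 (adjusted p = 0.0312) pass, and Psme1 also passed unfiltered (adjusted p = 0.0407); the cause was not tested. Without 1 library the ratios kept their directions, where the smallest p that 2 against 3 libraries allow is 0.2.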
